A study of Mus musculus with 8 samples.

Results

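Imprinted genes of fetal growth were examined in back skin of mouse embryos at E14.5, in 4 samples carrying GNAQ R183Q and 4 wild-type (WT) samples that the submitters call biologically independent. GNAQ is the alpha subunit of the G protein Gq, which links cell surface receptors to phospholipase C, and R183Q is the change found in capillary malformations of human skin. The labels do not say in which cells the changed protein was made, nor the sex or litter of the embryos, and all 8 samples carry a single batch label. Members were the rows of the authors' table of the 2 genotypes whose symbol is among 36 known imprinted mouse genes. The table held 35 of them, out of 20152 genes in all. Of these, 21 are expressed mainly from the paternal allele and 14 mainly from the maternal allele. The one without a row of its name was Gnas-as1, a noncoding RNA antisense to Gnas that RefSeq lists as Gnasas1.

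Imprinted genes are transcribed from a single parental copy. In most cases DNA methylation laid down in the egg or sperm marks the parental copies differently. Many imprinted genes regulate how fast the fetus grows. Paternally expressed genes such as Igf2 tend to promote growth and maternally expressed genes such as Igf2r and Grb10 tend to restrain it. They sit in clusters that hold genes of both kinds under a shared control region, and most are highly expressed in fetal mesoderm and fall after birth. Several members, among them Dcn, Ppp1r9a, Asb4, Ddc, Copg2, Commd1 and Ube3a, are known to be imprinted in only some tissues, mostly placenta or brain, and may use both copies in skin. The table counts reads of both parental copies together, so it shows levels and not imprinting itself.

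Expression is given on the scale of the authors' average expression, read here as normalised counts, and the log2 fold change is GNAQ R183Q over WT. The table has no value for a single library, and the depth of each library is unknown. Levels per genotype were therefore derived from the average and the fold change, and 95% intervals of the log2 fold change were implied by the authors' fold change and p-value. The altered gene, Gnaq, had a log2 fold change of 0.09 by the authors' deposited table, a value that does not separate the mutant allele from the WT allele and so does not check the labels. Defining markers of the tissue were present, with average expression of 29595 for the basal keratin Krt5 and 113098 for the collagen Col3a1 per the authors' deposited table. Fetal muscle was also represented, with 12342 for the embryonic myosin Myh3 per the authors' deposited table.

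Of the imprinted genes 1 passed the threshold, a share near that of all genes. Usp29, a ubiquitin-specific protease gene of the Peg3 cluster, rose, and it was the 1 member of 35 past the authors' adjusted p of 0.05, against 3.09% of all genes and 3.31% of genes with an average expression of at least 1000. It belongs to the paternally expressed members, of which 1 of 21 rose and 0 fell, against 0.63% of all genes called higher and 2.46% called lower. Of the 14 maternally expressed members 0 passed the authors' DESeq2 threshold, and 1 had an unadjusted p under 0.05. Over all 35 members 2 had an unadjusted p under 0.05, both higher in the mutant, against 14.2% of all genes, 5.94% higher and 8.23% lower. In a linear model on log2 CPM, rebuilt from the mean z-scores, 2 members likewise had an unadjusted p under 0.05, Usp29 and Rian, against 12.3% of all genes, and 0 of 20152 genes passed after adjustment. The median log2 fold change of the members was 0.01, the same as the 0.01 over all genes. It was -0.11 over the paternally expressed members and 0.12 over the maternally expressed members, and no test of that difference was made. With a trend on transcript length and GC content removed, the medians were -0.02 over the paternally and -0.01 over the maternally expressed members.

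The genotype difference was bounded for most members. The implied 95% interval lay within 2-fold in either direction for 33 of 35 members, against 62.7% of all genes and 96.5% of genes with an average expression of at least 1000. The exceptions were Igf2r, with an upper bound of 1.20, and Phlda2, with a lower bound of -1.30. For 18 of 35 members the interval lay within 1.5-fold, so for the others a change beyond that was not excluded by the interval. The log2 fold changes ran from -0.36 for Ddc to 0.44 for Usp29 per the authors' deposited table.

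**Figure D1:**
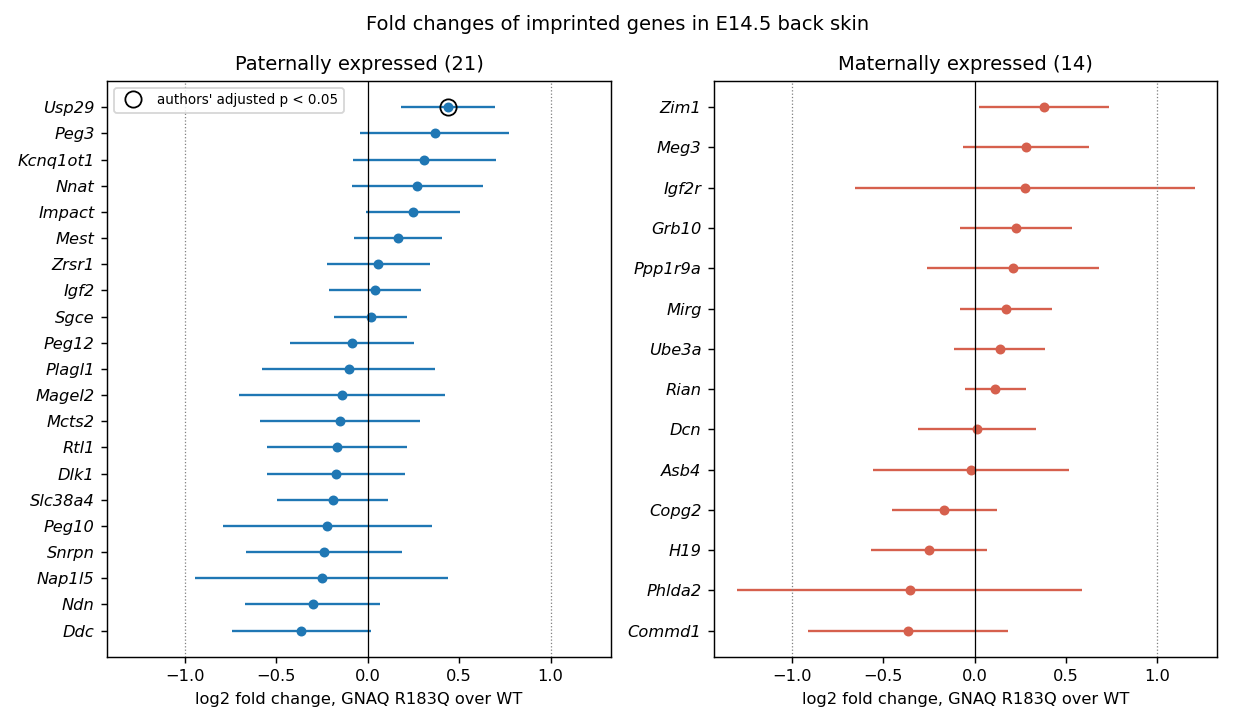
Log2 fold change of GNAQ R183Q over WT (horizontal axis) for the 21 paternally expressed members (left) and the 14 maternally expressed members (right). Points are the authors' values, lines the implied 95% intervals, dotted lines 2-fold, and the black ring marks the authors' adjusted p under 0.05, which 1 gene, Usp29, carries.

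The Peg3 cluster held the only member that passed, and its genes are shown first. Peg3 and Zim1 encode zinc finger proteins, paternally and maternally expressed, and Usp29 is transcribed away from Peg3 from a shared CpG-rich start region. The RefSeq windows of Peg3 and Usp29, from 250 bases before to 50 bases after each start, overlap by 263 bases, and their starts lie 164 bases apart on opposite strands. The Usp29 window (GRCm38.p6, chr7:6730333-6730632, plus strand) is printed because it is the start region of the gene that rose and of its neighbour. Capitals mark the bases from the start of Peg3 to the start of Usp29.
Usp29: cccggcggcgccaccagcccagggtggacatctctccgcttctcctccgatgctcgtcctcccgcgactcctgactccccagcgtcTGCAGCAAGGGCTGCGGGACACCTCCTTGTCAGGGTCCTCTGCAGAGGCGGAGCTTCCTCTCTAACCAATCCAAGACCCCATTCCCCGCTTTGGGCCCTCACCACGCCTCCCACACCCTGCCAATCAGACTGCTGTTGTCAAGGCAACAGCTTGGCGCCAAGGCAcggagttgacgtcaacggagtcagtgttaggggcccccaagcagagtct
The Zim1 window (GRCm38.p6, chr7:6696383-6696682, minus strand) is printed as the start region of the other member with an unadjusted p under 0.05. Capitals mark TGCCGC on either strand, the hexamer that the imprint-protecting protein ZFP57 is known to bind when methylated.
Zim1: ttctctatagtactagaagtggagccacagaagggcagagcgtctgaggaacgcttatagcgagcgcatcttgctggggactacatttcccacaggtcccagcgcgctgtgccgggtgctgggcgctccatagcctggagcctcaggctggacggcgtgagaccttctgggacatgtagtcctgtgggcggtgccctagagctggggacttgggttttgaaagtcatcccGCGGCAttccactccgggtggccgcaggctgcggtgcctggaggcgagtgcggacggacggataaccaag
The hexamer is not among the letters of the Usp29 window or the Peg3 window, and it occurs 1 time in that of Zim1. These windows are start regions and need not cover the imprint control regions. A window without the hexamer therefore does not show that a control region lacks it. Windows were found for 29 of the 36 members, 45 windows in all. Of these windows 28.9% held TGCCGC, against 11.6% of the 32851 windows of all genes. Overlapping windows of the same gene, such as those of Mest, were counted separately, and by gene 12 of the 29 held it. The member windows were also richer in CpG, with a median of 10 CpG per window against 7 in all windows.

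Usp29 had an average expression of 817 and a log2 fold change of 0.44 by the authors' deposited table (implied 95% bounds 0.18 and 0.69, authors' adjusted p 0.0301). The derived levels were 940 in GNAQ R183Q and 694 in WT, a 1.35-fold increase. Its authors' mean z-score of log2 CPM was 0.782 in GNAQ R183Q and -0.782 in WT, under 0.81, the bound past which the libraries of the 2 genotypes cannot overlap, so its libraries may overlap. Of the 35 members 0 passed that bound, against 2.58% of all genes. Mean and median z-score together give the mean of the middle 2 libraries, which is the median of 4, and the mean of the highest and lowest, but not the place of any library. For Usp29 the middle 2 libraries averaged 0.711 and the highest and lowest together 0.854 in GNAQ R183Q, against -0.778 and -0.787 in WT, so the 2 means were similar within each genotype, which does not show how far apart the outer libraries lay.

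Fold changes in the table also varied with transcript length. Among 13786 genes of at least 26.8 normalised counts (read as 1 CPM), the median log2 fold change was -0.14 in the 4597 genes of shortest transcripts and 0.10 in the 4596 genes of longest transcripts. The trend on length and GC content gave 0.17 of the log2 fold change of Usp29, whose longest transcript has 7540 bases. With the trend removed the log2 fold change was 0.27 and the adjusted p 0.344, so the call was lost. Some other members also had log2 fold changes of smaller size with it removed, among them Kcnq1ot1 at 0.13, Igf2r at 0.15, Ppp1r9a at 0.02 and Phlda2 at -0.09. Others had log2 fold changes of larger size, among them Peg10 at -0.36, Commd1 at -0.45 and Nnat at 0.52.

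Peg3 and Zim1 had values close to that of Usp29 but did not pass. Peg3 had an average expression of 36577 and a log2 fold change of 0.37 by the authors' deposited table (implied 95% bounds -0.04 and 0.77, authors' adjusted p 0.420). Zim1 had an average expression of 6100 and a log2 fold change of 0.38 by the authors' deposited table (implied 95% bounds 0.03 and 0.73, authors' adjusted p 0.303). In both, the middle and the outer libraries had more similar means in GNAQ R183Q than in WT. For Peg3 the middle 2 libraries averaged 0.407 and the outer 2 averaged 0.604 in GNAQ R183Q, against -0.067 and -0.945 in WT. For Zim1 the corresponding values were 0.633 and 0.512 in GNAQ R183Q, against -0.286 and -0.859 in WT. The outer WT libraries thus lay on average below the middle WT libraries in both genes. With the length and GC trend removed the log2 fold change of Peg3 was 0.19 and that of Zim1 0.20.

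Igf2 and H19 were among the most abundant RNAs of this skin. H19, a maternally expressed long noncoding RNA that restrains growth, had the fourth highest average expression of all genes, at 279418, and Igf2, the main fetal growth factor, ranked 14 with 79133 per the authors' deposited table. Per kilobase of the longest transcript the levels were 122230 for H19 and 16758 for Igf2, which ranked 9 and 97 among 17631 genes of known length. Igf2 had a log2 fold change of 0.04 by the authors' deposited table (implied 95% bounds -0.21 and 0.29). The derived levels of Igf2 were 80228 in GNAQ R183Q and 78038 in WT. H19 had a log2 fold change of -0.25 by the authors' deposited table (implied 95% bounds -0.57 and 0.07, authors' adjusted p 0.500). Its derived levels were 255259 in GNAQ R183Q and 303576 in WT, and the outer 2 libraries averaged z-scores of -0.270 in GNAQ R183Q and 1.04 in WT. The middle 2 libraries averaged -0.706 in GNAQ R183Q and -0.061 in WT, so both means were higher in WT. With the length and GC trend removed the log2 fold change of H19 was -0.08. Together the 35 members took 2.14% of all normalised expression in GNAQ R183Q and 2.19% in WT, and without H19 the shares were 1.18% in GNAQ R183Q and 1.07% in WT.

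**Figure D2:**
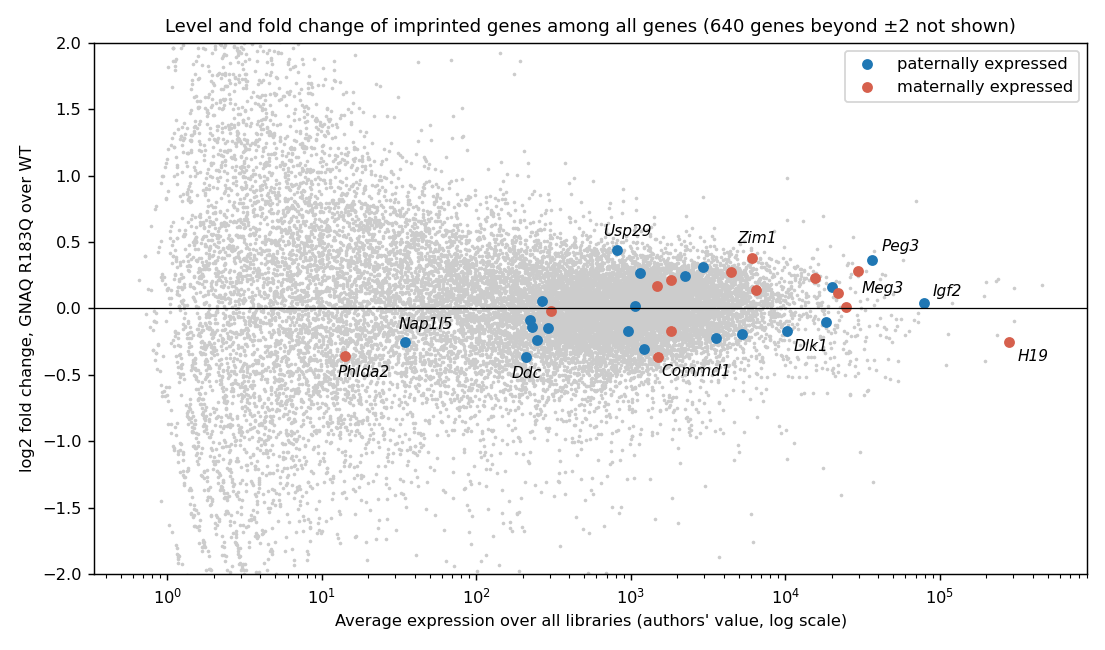
Authors' average expression (horizontal axis, log scale) against the log2 fold change of GNAQ R183Q over WT (vertical axis) for all genes (grey) and for paternally (blue) and maternally (red) expressed members. The members spread from 14.1 for Phlda2 to 279418 for H19, with a median of 1828 against 282 over all genes, and lie between -0.36 and 0.44, while 640 genes lie beyond the plotted range.

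Restrainers of IGF signalling did not pass. Igf2r, the receptor that removes IGF2 from the cell surface for degradation, had an average expression of 4464 and a log2 fold change of 0.27 by the authors' deposited table, with the wide implied interval from -0.66 to 1.20. Its middle 2 libraries averaged z-scores of 0.158 in GNAQ R183Q and 0.211 in WT, so by its middle libraries Igf2r was not higher in GNAQ R183Q. Grb10, an adaptor that dampens insulin and IGF receptors, had an average expression of 15683 and a log2 fold change of 0.23 by the authors' deposited table (implied 95% bounds -0.08 and 0.53). Phlda2, known to limit growth of the placenta, was barely expressed, with 14.1 and a log2 fold change of -0.36 by the authors' deposited table. Plagl1, a zinc finger transcription factor that regulates other imprinted genes, had an average expression of 18431 and a log2 fold change of -0.11 by the authors' deposited table, although its mean z-score was 0.014 in GNAQ R183Q and -0.014 in WT.

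In the Dlk1-Meg3 cluster the noncoding RNAs of the maternal copy had positive fold changes and the coding genes of the paternal copy negative ones, none past the threshold. Dlk1, a transmembrane EGF-like protein that holds back fat cell differentiation, had an average expression of 10244 and a log2 fold change of -0.17 by the authors' deposited table (implied 95% bounds -0.55 and 0.20). Rtl1, a retrotransposon-derived gene needed in placental vessels, had -0.17 per the authors' deposited table. The noncoding RNA Meg3 had 0.28, and its downstream neighbours Rian, a host of small nucleolar RNAs, and Mirg, a host of microRNAs, had 0.11 and 0.17 per the authors' deposited table. Rian had the narrowest implied interval of all members, from -0.05 to 0.28. With the length and GC trend removed Meg3 had 0.09, Mirg 0.19 and Rian -0.05. For Dlk1 the middle 2 libraries averaged a z-score of -0.377 in GNAQ R183Q, against 0.680 in WT. The outer 2 averaged -0.016 in GNAQ R183Q and -0.287 in WT, so the means of the outer libraries had the opposite order to those of the middle ones.

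**Figure D3:**
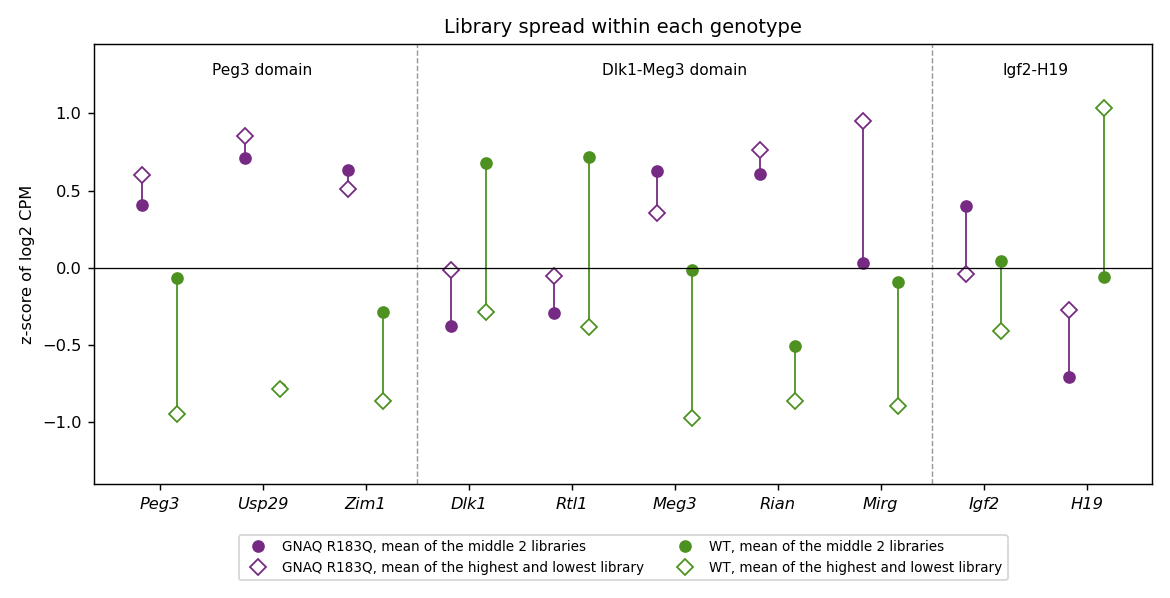
z-score of log2 CPM (vertical axis) of 10 members in 3 clusters, for GNAQ R183Q (purple, left of each pair) and WT (green, right). Circles are the mean of the middle 2 libraries and diamonds the mean of the highest and lowest, joined by a line. The gap is small for Usp29, wide in WT for Peg3, Dlk1, Rtl1, Meg3 and H19, and wide in both genotypes for Mirg.

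Such gaps between the middle and the outer libraries were counted over all members. In GNAQ R183Q the median z-score lay more than 0.3 above the mean in 1 of 35 members, and in WT in 15 of 35, which places the mean of the outer libraries below that of the middle 2. Over all genes with an average expression of at least 1000 the shares were 3.25% in GNAQ R183Q and 24.0% in WT, so other genes also had it more often in WT. The share of members in WT was above that of these genes, but 24 of the 35 members reach that level and no test of the difference was made. In the other direction, the median lay more than 0.3 below the mean in 2 of 35 members in GNAQ R183Q and 4 of 35 in WT. Over genes with an average expression of at least 1000 those shares were 4.18% in GNAQ R183Q and 15.1% in WT. Which WT libraries were low or high cannot be read from means and medians, and their part in the results was not tested.

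Growth-promoting and metabolic genes of the paternal copy lay on both sides of 0. Mest, an alpha/beta hydrolase gene of fetal mesoderm, had an average expression of 20053 and a log2 fold change of 0.16 by the authors' deposited table. The amino acid transporter gene Slc38a4 had -0.19 at 5288, and Peg10, a retrotransposon-derived gene required in the placenta, -0.22 at 3554 per the authors' deposited table. Sgce, the epsilon-sarcoglycan gene next to Peg10, had 0.02 (implied 95% bounds -0.18 and 0.22). Impact, an inhibitor of the amino acid sensor kinase GCN2, had 0.25 per the authors' deposited table (implied 95% bounds -0.01 and 0.50, authors' adjusted p 0.374). Ddc, which encodes the decarboxylase that makes dopamine and serotonin, had -0.36 (implied 95% bounds -0.74 and 0.02, authors' adjusted p 0.378) per the authors' deposited table. Kcnq1ot1, the noncoding RNA that silences genes of its cluster on the paternal copy, had 0.31 at an average expression of 2942 per the authors' deposited table.

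Of the 5 genes of the Snrpn-Ndn cluster, which is deleted or silenced in Prader-Willi and Angelman syndromes, 0 passed the authors' DESeq2 threshold and 0 had an unadjusted p under 0.05. Necdin (Ndn), a MAGE family protein gene, had an average expression of 1216 and a log2 fold change of -0.30 by the authors' deposited table (implied 95% bounds -0.67 and 0.07, authors' adjusted p 0.477). The paternally expressed Magel2, Snrpn and Peg12 had -0.14, -0.24 and -0.09 at average expression between 222 and 246 per the authors' deposited table. Ube3a, a ubiquitin ligase gene expressed from the maternal copy in neurons, had 0.14 at 6503 per the authors' deposited table.

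The remaining maternally expressed members, and small paternally expressed genes within introns of others, did not pass the adjusted p threshold either. Decorin (Dcn), a collagen-binding proteoglycan of the dermis, had an average expression of 24556 and a log2 fold change of 0.01 by the authors' deposited table (implied 95% bounds -0.31 and 0.34). Neurabin (Ppp1r9a) had 0.21, the ankyrin repeat gene Asb4 -0.02 and the vesicle coat gene Copg2 -0.17 per the authors' deposited table. Commd1, which acts in copper handling, had -0.36 (implied 95% bounds -0.91 and 0.18), and Zrsr1, a splicing factor gene within its intron, had 0.06 per the authors' deposited table. Neuronatin (Nnat) had 0.27 and its host gene Blcap 0.04 per the authors' deposited table. With the length and GC trend removed Nnat had 0.52 and an adjusted p of 0.0998, the highest value of the members there. In the other such pair, Mcts2 had -0.15 and its host gene H13 0.08 per the authors' deposited table. Nap1l5 had the second lowest level of the members, 34.8, with a log2 fold change of -0.25 by the authors' deposited table. Reads of several members overlap other transcripts, among them Nnat, Mcts2, Nap1l5, Zrsr1 and its host Commd1, Mest, Copg2, Rtl1 and Kcnq1ot1. The strand setting of the counting is not given in the sources used here, so the levels of such members are uncertain. Snrpn shares its transcript with Snurf, which had -0.22 per the authors' deposited table, and the counts of the 2 cannot be treated as separate.

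Lists of related genes were set beside the members. Among 38 other measured imprinted genes, 2 fell and 0 rose, against 2.46% of all genes called lower and 0.63% called higher. Their median log2 fold change was -0.04. Ampd3, an AMP deaminase gene, fell, at -0.77 (implied 95% bounds -1.04 and -0.49, authors' adjusted p 7.19e-06), and Osbpl5, an oxysterol-binding protein gene of the Kcnq1ot1 cluster, fell, at -0.40 with an authors' adjusted p of 0.0221 per the authors' deposited table. Osbpl5 lost its call with the length and GC trend removed, with an adjusted p of 0.0953, and Cobl, an actin nucleator gene, was called there instead, at -0.46 and 0.0160. Cdkn1c, a cell cycle inhibitor and the best known growth restrainer of that cluster, had an average expression of 15852 and a log2 fold change of -0.46 (implied 95% bounds -0.77 and -0.15) per the authors' deposited table. It missed the threshold with an authors' adjusted p of 0.0888, and its mean z-score was -0.747 in GNAQ R183Q against 0.747 in WT. Its derived levels were 13343 in GNAQ R183Q and 18360 in WT. With the trend removed its log2 fold change was -0.23.

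Of 21 genes of the IGF axis 0 passed the authors' DESeq2 threshold, 2 were higher and 3 lower at an unadjusted p under 0.05, and the median was 0.08. Over all genes 3.09% passed that threshold, and 5.94% were higher and 8.23% lower at an unadjusted p under 0.05. The receptor genes Igf1r and Insr had log2 fold changes of 0.27 and 0.25 per the authors' deposited table, with implied intervals from -0.21 to 0.74 and from -0.13 to 0.63. Igf1, the growth factor that takes over from Igf2 later in growth, had -0.02 at an average expression of 2606 per the authors' deposited table. The smallest p of the list belonged to the binding protein gene Igfbp6, at -1.06 with an authors' adjusted p of 0.135 and an average expression of 37.4 per the authors' deposited table.

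Of 18 measured genes of imprint and methylation control 1 rose and 0 fell, against 0.63% of all genes called higher and 2.46% called lower. Besides genes that maintain imprints, the list holds Dnmt3a, Dnmt3b and Dnmt3l, which act in setting methylation. It also holds Tet1, Tet2 and Tet3, which act in removing it. The median log2 fold change of the 18 was 0.18. Positive values were found in 16 of the 18, against 51.0% of all genes and 53.5% of genes with an average expression of at least 1000. With the length and GC trend removed 14 were positive, with a median of 0.12. Zfp57, the zinc finger protein that binds methylated imprint control regions and recruits silencing, rose, at 0.64 (implied 95% bounds 0.25 and 1.02, authors' adjusted p 0.0429) per the authors' deposited table. Its derived levels were 1724 in GNAQ R183Q and 1109 in WT. Its mean z-score was 0.694 in GNAQ R183Q and -0.694 in WT, under the separation bound of 0.81. The call held with the length and GC trend removed, at 0.66 on the log2 scale and an adjusted p of 0.0298. The related Zfp445 had 0.34, their cofactor Trim28 0.17, the maintenance methyltransferase gene Dnmt1 0.18 and its partner Uhrf1 0.21 per the authors' deposited table, where their adjusted p ran from 0.291 to 0.633.

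**Figure D4:**
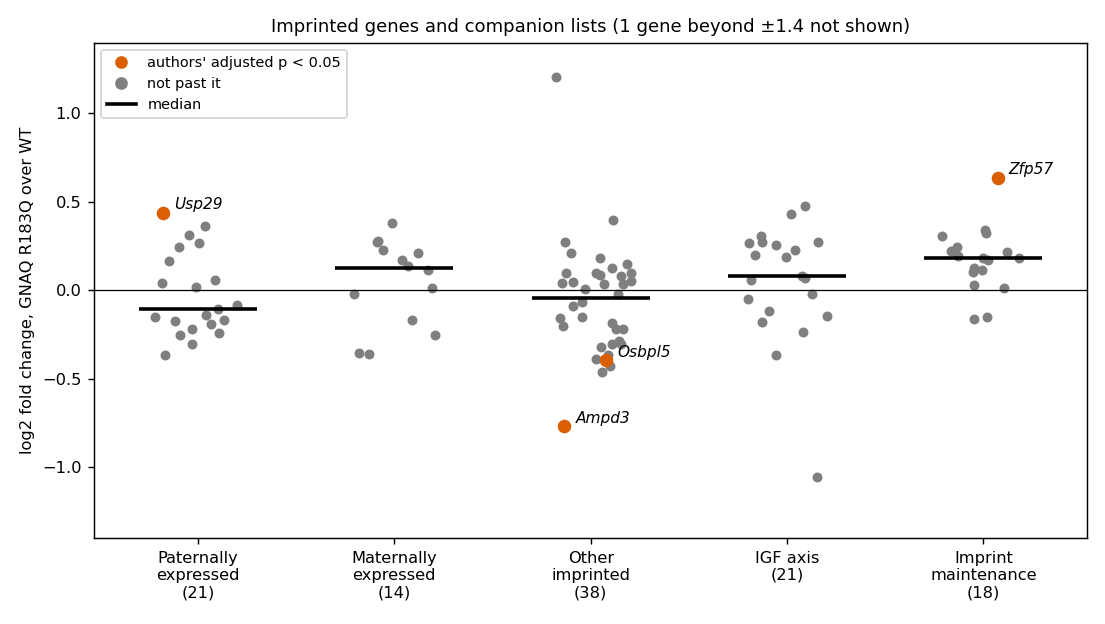
Log2 fold change of GNAQ R183Q over WT (vertical axis) for paternally and maternally expressed members and 3 related lists, with 1 point per gene and a black bar at each median. Orange points pass the authors' adjusted p of 0.05: Usp29 and Zfp57 above 0, Ampd3 and Osbpl5 below.

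Markers of cell types of skin and nearby tissue were also read, since bulk RNA cannot tell fewer cells from less RNA per cell. Of 5 preadipocyte markers 2 fell, Pparg at -0.74 and Cebpa at -0.66 per the authors' deposited table, against 2.46% of all genes called lower. Ebf2 and Zfp423 had -0.38 and -0.01, and Fabp4 had 0.26 per the authors' deposited table, none past the threshold. The summed derived level of the preadipocyte markers was 1616 in GNAQ R183Q and 2087 in WT. Of 6 muscle markers 0 passed the authors' DESeq2 threshold and 1 was lower at an unadjusted p under 0.05, with summed derived levels of 32499 in GNAQ R183Q and 31624 in WT. Myh3 and Ttn had positive log2 fold changes, 0.20 and 0.16, and Myog, Des, Actc1 and Myod1 had -0.47, -0.21, -0.14 and -0.01 per the authors' deposited table. Of 6 dermal fibroblast markers 1 fell, Dpt at -0.50 per the authors' deposited table, with summed derived levels of 178972 in GNAQ R183Q and 201755 in WT. Col1a1, Col3a1, Twist2 and Lum had -0.21, -0.19, -0.15 and -0.09, and Pdgfra had 0.36 per the authors' deposited table, none past the threshold. Of 6 neuronal markers 0 passed, and 1 was higher at an unadjusted p under 0.05, with sums of 1390 in GNAQ R183Q and 1437 in WT. Of 6 keratinocyte markers 1 fell, Krt15 at -1.01 per the authors' deposited table, with summed derived levels of 51232 in GNAQ R183Q and 62234 in WT. Krt14, Krt5 and Col17a1 had -0.19, -0.12 and -0.09, and Itgb4 and Trp63 had 0.36 and 0.18 per the authors' deposited table, none past the threshold. The 6 Schwann cell and melanocyte markers, the 5 endothelial markers and the 4 measured cartilage markers held 0 genes past the authors' DESeq2 threshold and 1, 0 and 0 genes at an unadjusted p under 0.05. Among cartilage markers Acan stood at 9.19 and Matn1 had no row per the authors' deposited table. With the length and GC trend removed Pparg and Krt15 kept their calls, with adjusted p of 0.0465 and 0.0123. Cebpa and Dpt lost theirs, with adjusted p of 0.206 and 0.0504. The neuronal marker Tubb3 was called there, at 0.86 on the log2 scale and an adjusted p of 0.0421. The part of these cell types in the levels of imprinted genes was not tested.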

How the data were processed

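RNA of E14.5 back skin was sequenced by the submitters from stranded TruSeq libraries, per the labels' protocols, in 4 GNAQ R183Q and 4 WT samples. The authors used DESeq2 and the build mm39, per the submitters' processing notes. The sources used here do not give the aligner, counter, annotation, strand setting or design. The deposited average expression is a signal over all libraries, per the file headers, and sums to 2.68e+07. The authors' log2 fold change and p-value were taken as deposited, and adjusting the p-values over 20152 genes by Benjamini-Hochberg gave the deposited adjusted p-values back. The z-score columns are scores of log2 CPM that the authors deposited as mean and median per genotype.

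Implied errors divide the size of the log2 fold change by the normal deviate of its p-value, as for a Wald test. A linear model on log2 CPM with 6 residual degrees of freedom was rebuilt from the mean z-scores. Simulated data checked only the arithmetic of this model and of the implied errors. They could not test whether the authors' p-values come from a Wald test with a normal deviate, which the implied intervals assume. Transcript length and GC content came from the longest GENCODE vM21 transcript per symbol (GRCm38, 87.5% of genes, all 35 members), protein-coding first, and their trend was fitted with natural cubic splines of 4 degrees of freedom. Promoter sequences are RefSeq's, of GRCm38.p6. Replicates are separate samples per the labels, and p-values measure the spread between them.

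Members and lists were chosen with earlier results of these data known. All members are reported, with full statistics for called members, the smallest p, the largest changes and the most abundant, and called genes of the related lists are named. Python 3.11.15, scipy 1.17.1, pandas 2.3.3 and patsy were used.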

Additional observations from a re-analysis of the deposited data

How the results depend on the processing

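No paired analysis was possible because the table has no values per library, and for the same reason no replicate could be left out in turn. The count of 1 called member, Usp29, was 1 after a filter at an average expression of 10, after centring on the median of all genes, at an adjusted p of 0.1 and with the row Gnasas1 added (chosen after seeing the data). It was 0 with the length and GC trend removed, at an adjusted p of 0.01, with a 2-fold limit added, and with the linear model from z-scores. That model called 0 of 20152 genes after adjustment and 2481 at an unadjusted p under 0.05, so its 0 says nothing particular about the members. The counts for paternally expressed members moved alike, and those for maternally expressed members were 0 throughout. The 2 other imprinted genes became 0 with the linear model, 1 at 0.01, 4 at 0.1 and 0 with the 2-fold limit. The IGF axis had 1 call, Igfbp2, with the trend removed. The 1 imprint maintenance gene became 0 with the linear model, at 0.01 and with the 2-fold limit. With the trend removed, the median log2 fold change was -0.02 over all members, -0.02 over paternally and -0.01 over maternally expressed ones, and Peg12 turned to 0.072, Zrsr1 to -0.021, Rian to -0.045 and Ube3a to -0.050. Plagl1 and Asb4 had mean z-scores of 0.014 and 0.057 in GNAQ R183Q, against the sign of their fold changes. Without Dcn, Ppp1r9a, Asb4, Ddc, Copg2, Commd1, Ube3a and Grb10 the medians were 0.02 over all, -0.10 over paternally and 0.17 over maternally expressed members. Grb10 was left out there in addition to the members named above as imprinted in only some tissues. The cause of these changes was not tested. Depth per library is unknown.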

Other observations

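Several genes named above encode zinc finger proteins with positive fold changes, and this was looked at after their values were seen. Of 358 genes whose symbol is Zfp followed by a number, 69.6% had a positive log2 fold change of GNAQ R183Q over WT, against 51.0% of all genes, and their median was 0.10 against 0.01. Of these genes 5 rose and 4 fell past the authors' adjusted p, or 2.51% against 3.09% of all genes. With the length and GC trend removed 69.3% were positive, with a median of 0.09 against 0.02 over all genes. Their longest transcripts have a median of 3370 bases, against 2922 over all genes. The genes share libraries and are not independent, and no test was made.

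The Gnas antisense RNA, listed as Gnasas1, stood at 29.3 with a log2 fold change of 0.42 by the authors' deposited table (implied 95% bounds -0.42 and 1.26).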
